A study of Mus musculus with 2 samples.

Results

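Mmp8, Mmp9, Mmp25 and Adam8 are 4 genes for zinc-dependent proteases of neutrophils, chosen by symbol among the 32285 genes counted in cells sorted from mouse bone as osteal macrophages (Omacs), the macrophages that line bone surfaces. They were described along neutrophil maturation, against the genes of secondary granules, and in the cells of ovariectomized (OVX) and sham-operated (sham) female BALB/c mice. Mice were 10 weeks old at surgery, and femurs and vertebrae were collected 4 weeks later from pools of 20 mice for each condition. After trypsin and an overnight digestion with collagenase D, cells were sorted with antibodies against CD11b, F4/80 and CD68. Cells of both pools were tagged with hashtag antibodies (hashtag 1 for OVX, hashtag 2 for sham) and run as 1 droplet reaction, so each condition was 1 pool without replicates and no difference between conditions was tested.
Neutrophils carry their proteases in granules that are filled in turn as the cell matures. Primary granules are made in promyelocytes, secondary granules with lactoferrin (Ltf) and cathelicidin (Camp) in myelocytes and metamyelocytes, and tertiary or gelatinase granules in band cells. Mmp8, neutrophil collagenase, cleaves fibrillar collagen and is classed as a secondary granule protein. Mmp9, gelatinase B, gives tertiary granules their other name and is also made by osteoclasts. Mmp25, or leukolysin, is a membrane-type protease tethered by a lipid anchor. Adam8 is a transmembrane protease with a disintegrin domain that sheds surface proteins.
The library held 17681092 gene UMIs (unique molecular identifiers, each counting 1 captured RNA once) in 2349 barcodes, with a median of 4387 UMIs per barcode. The hashtag counts assigned 1059 barcodes to OVX and 981 to sham, while 78 carried both hashtags and 231 carried neither. Of 6 clusters, 4 with 2077 barcodes (88.4%) were kept as neutrophil-like, of which 1005 were OVX and 886 sham. Their Ptprc (CD45) lay between 409 and 785 counts per 1000000 UMIs (CPM), and S100a8 and S100a9 together made up 25.3% of their UMIs. All 8 neutrophil markers were at 10 CPM or more, while of 8 macrophage markers 1 was (Csf1r, 10.4 CPM) and C1qc was at 0, so the labelled cell type was not that of most barcodes. The remaining clusters were 62 cells high in Arg1 and Msr1, and 210 cells with Ptprc at 5.85 CPM that carried stromal genes, whose levels of the 4 genes served as the background of free RNA.
Mmp8 (ENSMUSG00000005800) lies on chr9:7558456-7568485 of GRCm38, on the plus strand, and Mmp9 (ENSMUSG00000017737) on chr2:164940780-164955850, also on the plus strand. Mmp25 (ENSMUSG00000023903) lies on chr17:23628311-23645277 and Adam8 (ENSMUSG00000025473) on chr7:139978932-139992562, both on the minus strand. All 4 are protein-coding genes, with 10, 13, 10 and 24 exons in the transcript with the longest coding sequence. What unites them is the zinc-binding motif of the catalytic site, in which 3 histidines hold the zinc ion. The 33 bases that encode it were read from the GENCODE transcripts of the C57BL/6J reference and are shown to let the members be compared, with the codons of the zinc-binding histidines in capitals.
Mmp8: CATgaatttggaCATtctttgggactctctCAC
Mmp9: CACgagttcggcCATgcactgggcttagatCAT
Mmp25: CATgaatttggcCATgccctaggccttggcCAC
Adam8: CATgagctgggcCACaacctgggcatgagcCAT
These stretches are coding and lie in exon 5 of Mmp8 (chr9:7563086-7563118), exon 8 of Mmp9 (chr2:164951133-164951165), exon 5 of Mmp25 (chr17:23632843-23632875) and exon 11 of Adam8 (chr7:139987893-139987925). Between pairs, 17 to 23 of the 33 bases were identical, with the fewest between Mmp8 and Adam8 and 20 between Mmp8 and Mmp9. The exact letters of the cysteine switch, the propeptide sequence that keeps a matrix metalloproteinase latent, were matched in the coding sequences of Mmp8 and Mmp9 and not in those of Mmp25 and Adam8.
In the cell clusters, Mmp9 had the highest level of the 4 in each neutrophil-like cluster. Mmp8 was second in all but the cycling cluster, where it was level with Mmp25 (374 and 372 CPM). By condition, Mmp8 and Mmp25 were at 192 and 286 CPM in OVX cells of the cycling cluster, and at 453 and 403 CPM in its sham cells. A UMI at the 3′ end counts an RNA once whatever its length, so levels are given per UMI and not per base. Mmp9 was at 648 CPM in the cycling cluster, 2147 in the cluster marked by Stfa2, 2095 in that marked by Retnlg and 2173 in that marked by Ccl4. Mmp8 was at 374, 1264, 1505 and 1315 CPM in the same order. Both collagen-degrading enzymes were thus lowest in the cycling cells. In these sums over both conditions Mmp9 was close to even in the other clusters, and Mmp8 ranged from 1264 to 1505 CPM. In sham cells alone Mmp8 was at 972, 1479 and 794 CPM in the Stfa2, Retnlg and Ccl4 clusters. In OVX cells it was at 1296, 1624 and 1641 CPM.
Mmp25 and Adam8 differed in where they were lowest. Mmp25 was at 372 CPM (95% Poisson interval 352 to 393) in the cycling cluster and at 178 CPM (160 to 197), its lowest of the 4, in the Ccl4 cluster. Adam8 was at its lowest, 186 CPM (172 to 201), in the cycling cluster and at 570 CPM (537 to 605) in the Ccl4 cluster. Summed over both conditions, the 2 genes stood close to each other between these clusters, at 318 and 319 CPM in the Stfa2 cluster. They were at 459 and 480 CPM in the Retnlg cluster, where Mmp25 was highest in these sums. By condition, Mmp25 and Adam8 were at 283 and 318 CPM in OVX cells of the Stfa2 cluster. In its sham cells they were apart, at 555 CPM (491 to 626) and 288 CPM (242 to 340). Sham cells of the Retnlg cluster held Mmp25 at 510 CPM (473 to 549). These intervals, like all those given here, cover counting error only.
The levels in the Ptprc-low cluster were taken as a measure of the free RNA that a droplet could hold. There Mmp8 was at 11.9, Mmp9 at 37.3, Mmp25 at 3.29 and Adam8 at 8.59 CPM, from 0.981% (Mmp25) to 2.45% (Adam8) of the neutrophil-like level. After thinning each cell to 1000 UMIs, Mmp9 had a UMI in 70.7% of neutrophil-like cells, Mmp8 in 48.4%, Adam8 in 32.4% and Mmp25 in 24.2%, against 1.01% to 3.54% of Ptprc-low cells. Before thinning the shares in neutrophil-like cells were 86.5%, 67.5%, 69.5% and 57.1%, at a median of 3905 UMIs, and those in Ptprc-low cells reached 43.3% (Mmp9), at a median of 19996.5 UMIs. The greater depth of Ptprc-low cells dilutes free RNA in CPM and thinned shares, so these can understate it per droplet. Mmp9 had 204 UMIs in 210 Ptprc-low cells and 19677 in 2077 neutrophil-like cells. Mmp25 had 18 UMIs in the Ptprc-low cells, beside 52 in the 207 cells of the last maturation bin described below.
The 62 cells of the Arg1 and Msr1 cluster held the 4 genes in another ratio. Mmp8 was at 1583 CPM (1482 to 1688) and Adam8 at 785 CPM (715 to 861), which were 151% and 225% of their neutrophil-like levels. Mmp9 was at 270 CPM (229 to 315) and Mmp25 at 41.2 CPM (26.4 to 61.4), which were 15.9% and 12.3% of theirs. S100a8, the most abundant neutrophil RNA next to S100a9, stood at 10.5% of its neutrophil-like level in these cells. Mmp25 and Mmp9 were thus near the share of S100a8 that these cells held, while Mmp8 and Adam8 were above it by more than an order of magnitude. In this cluster 4 of 8 macrophage markers were at 0, and the platelet chemokine genes Pf4 and Ppbp stood at 5430 and 1483 CPM.

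**Figure D1:**
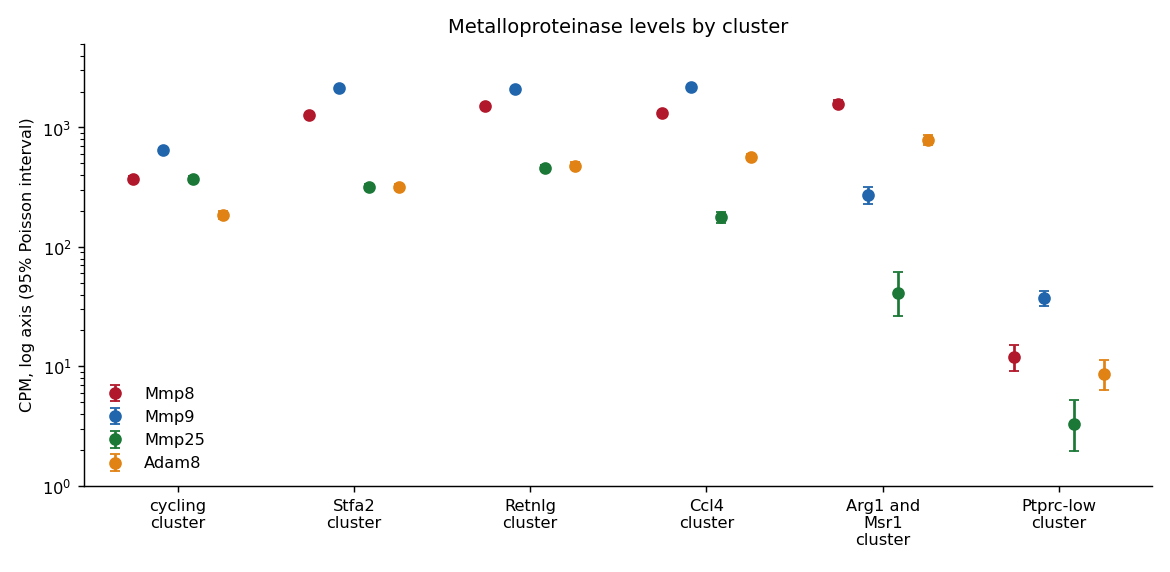
CPM of Mmp8, Mmp9, Mmp25 and Adam8 (log axis, bars show the 95% Poisson interval) in the 6 clusters. Mmp8 and Adam8 stand at 1583 and 785 CPM in the Arg1 and Msr1 cluster, where Mmp9 and Mmp25 are at 270 and 41.2 CPM.

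To order the neutrophil-like cells by maturation, diffusion pseudotime was run starting at the cell in which the cycling genes Mki67 and Top2a had the most UMIs. The 4 genes and the listed primary, secondary and tertiary granule genes had been left out of its graph, while other granule genes could remain. Cells were then divided into 10 bins of 207 or 208 cells. Mki67 was at 346 CPM in bin 1 and 20.1 in bin 2, and Cxcr2, a chemokine receptor of mature neutrophils, went from 395 CPM in bin 1 to 2790 in bin 9. The median depth was 9315 UMIs per cell in bin 1 and 2172 in bin 10. Bin 10 also took in 31 cells of the cycling cluster, so the end of the order was mixed.
The 4 genes followed different courses along this order. Mmp25 was already at 302 CPM in bin 1, was highest in bin 2 at 487 CPM, and was at 104 CPM in bin 10. Mmp9 went from 338 CPM in bin 1 to 1327 in bin 2 and to its highest level in bin 6, at 2458 CPM. Mmp8 went from 126 CPM in bin 1 to 1712 CPM in bin 5, a 13.6-fold difference that was the widest of the 4. Adam8 came later, going from 142 CPM in bin 1 to 398 in bin 5 and 668 in bin 9.

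**Figure D2:**
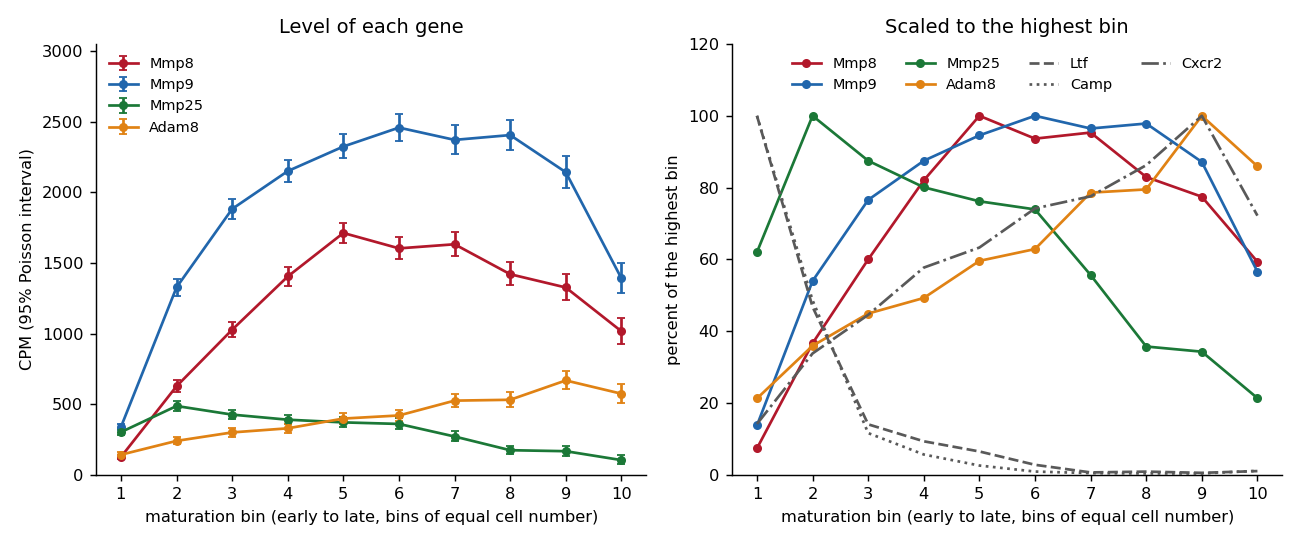
Left, CPM of the 4 genes in the 10 maturation bins (bars show the 95% Poisson interval). Right, the same levels as a percent of each gene's highest bin, with Ltf and Camp (secondary granule) and Cxcr2 (late receptor) in grey. Mmp25 peaks in bin 2, Mmp8 in bin 5, Mmp9 in bin 6 and Adam8 in bin 9, whereas Ltf and Camp are highest in bin 1.

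The half-point, the percent of ordered cells at which the summed bin levels of a gene reach 50% of their total, put these courses on 1 scale. It was 38.0 for Mmp25 (95% counting interval 36.8 to 39.2), 55.6 for Mmp9 (55.1 to 56.1), 56.6 for Mmp8 (55.9 to 57.2) and 64.5 for Adam8 (63.3 to 65.7). The neighbors Mmp9 and Mmp8 lay within 1 percent of the order of each other, and their intervals overlapped. Of 3339 genes at 50 CPM or more in a bin, 20.9% had an earlier half-point than Mmp25, 60.0% than Mmp9, 64.1% than Mmp8 and 88.7% than Adam8.
The secondary granule genes came earlier. Ltf was highest in bin 1 at 3494 CPM and was at 491 CPM in bin 3, and Camp went from 4193 to 487 CPM over the same bins. Their half-points were 9.13 and 8.58. Chil3, Ngp and Lcn2 (lipocalin 2) followed at 15.4, 15.2 and 20.9, Olfm4 at 31.8 and Cd177 at 36.5, while haptoglobin (Hp) came last at 56.9. The median of the 8 was 18.2. Mmp25, Mmp9 and Mmp8 each came after 7 of the 8, all but Hp, and Adam8 came after all 8. The intervals of Mmp25 and Cd177 (35.8 to 37.1) overlapped, as did those of Mmp8 and Hp (55.4 to 58.3).
Mmp8, which is grouped with this list by where its protein is stored, was at 50% or more of its highest bin from bin 3 on, after Ltf and Camp had passed below 50% of theirs in bin 2. In thinned cells of bin 1, 66.7% had an Ltf UMI and 8.08% an Mmp8 UMI. In bin 5 the shares were 9.95% for Ltf and 69.2% for Mmp8, so the order of the 2 genes had turned around.
The tertiary granule genes were spread over the range of the 4 proteases. Their half-points were 43.3 for Itgb2, 53.1 for Itgam (the subunits of Mac-1), 55.8 for properdin (Cfp) and 71.0 for the iron transporter Slc11a1, with a median of 54.4 beside 52.9 for all 3339 genes, and Tnfaip6 had 86 UMIs, too few for a half-point. The 7 late neutrophil genes lay between 52.5 (Fpr2) and 79.3 (Il1b), with a median of 63.0, and Adam8 fell between Cxcr2 (63.1) and Csf3r (70.7). Primary granule genes were at the other end, with half-points of 5.14 for Prtn3 and 5.83 for Ms4a3, while Mpo, Elane and Ctsg had 9 to 56 UMIs in all neutrophil-like cells.

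**Figure D3:**
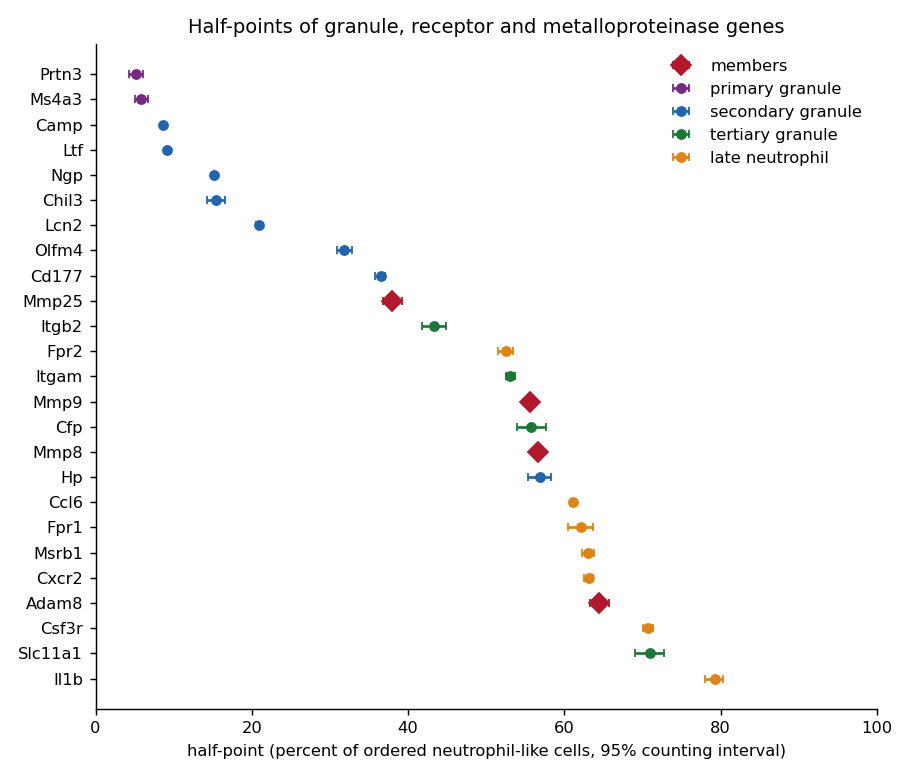
Half-point of each gene (percent of ordered neutrophil-like cells, bars show the 95% counting interval) for the 4 metalloproteinases (diamonds) and 4 gene lists. Mmp25 sits at 38.0 beside Cd177, Mmp9 and Mmp8 at 55.6 and 56.6 near Cfp and Itgam, and Adam8 at 64.5 among late receptors.

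The order of the 4 half-points was compared in 10 settings. Mmp25 came first in 10 of 10 and all 4 genes came after the median of the secondary granule list in 10 of 10. Mmp25 came after 7 of the 8 secondary genes in 7 settings and after 6 in 3, with Cd177 then later than Mmp25. Mmp8 came after all 8 in 6 settings, Mmp9 in 2 and Adam8 in 9. Adam8 came last in 9 of 10, the exception being an order by a score of late minus early marker genes, in which it was at 60.5 against 61.9 for Mmp8 and 60.9 for Mmp9. Mmp9 came before Mmp8 in 9 of 10, the exception being sham cells alone, so the relative order of those 2 genes was not settled.
The genes whose levels ran most alike over the 10 bins differed between members. For Mmp8 they were Grina, Bst1, Myl12b, Ly6g and Mgst1, with Pearson r of log2(CPM + 10) from 0.985 to 0.992. For Mmp9 they were Grina, Adam19, Itgam, Mgst1 and Ly6g (0.983 to 0.993), so 3 genes were on both lists, among them Ly6g, the surface marker of mouse neutrophils. For Mmp25 they were Sp100, Plekha2, Pqlc3, R3hdm4 and Atp8b5 (0.968 to 0.981). For Adam8 they were Tlr4, the receptor for lipopolysaccharide, and Ptbp3, Lilrb4a, Glipr1 and Resf1 (0.993 to 0.996). Among the members r was 0.99 for Mmp8 with Mmp9 and -0.63 for Mmp25 with Adam8, and against Ltf it ranged from -0.98 (Adam8) to 0.68 (Mmp25). The bins share 1 library and the same fall in depth, so these values describe the order and carry no test.
In single cells thinned to 1000 UMIs, the pairs could be counted directly. In the earliest of 3 equal parts of the order (655 cells), 171 cells had UMIs of both Mmp8 and Mmp9, where 127 would be found if the genes were independent over all these cells and 155 if they were independent within each maturation bin. In the same cells Mmp8 met Ltf in 82 cells (101 if independent over all of them, 79.3 within bins) and Mmp9 met Ltf in 135 (161 and 137). Mmp25 met Ltf in 96 cells, against 89.9 and 87.0. Within bins Mmp8 and Mmp9 were thus near independence from Ltf. Mmp25 met Ltf more often than that, as it did over all 1919 thinned cells (120 cells against 103 within bins). In the earliest part Mmp8 met Camp in 73 cells against 66.5 within bins, Mmp9 in 119 against 118 and Mmp25 in 85 against 78.2. With Camp, Mmp8 and Mmp25 thus both lay above the counts within bins. Mmp25 also met Adam8 in more of all thinned cells, 157 against 139 within bins, so its excess was not limited to Ltf. In the middle part (649 cells) Mmp8 and Mmp9 met in 349 cells against 347 within bins, and the share of cells with Ltf was 7.55%. In the last part (615 cells) Mmp8 and Mmp9 met in 230 cells against 212 within bins. These counts join cells of both conditions, and pairs were not counted within each.
The spread between cells differed among the 4 genes. If all cells of a bin held the same level, the share of cells with a UMI would follow from the mean by the Poisson law. For Mmp8 the measured share lay below it in each bin, by 21.0 percentage points over all cells (48.4% against 69.3%), and stood at 47.7% against 72.6% in bin 9. In bin 9, 10.9% of cells had 4 or more Mmp8 UMIs among 1000, where 4.26% follows from the mean. For Mmp9 the gap over all cells was 13.2 points, while for Mmp25 and Adam8 it was 2.24 and 2.29 points. The gap was widest for Mmp8 in 8 of the 10 bins and for Mmp9 in 2, bins 1 and 3. Since the bins hold cells of both conditions, it was also computed within each, and in bin 9 the measured Mmp8 share was 60.6% against 80.3% in OVX cells and 32.5% against 60.2% in sham cells. A gene with a higher mean has more room for such a gap.

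**Figure D4:**
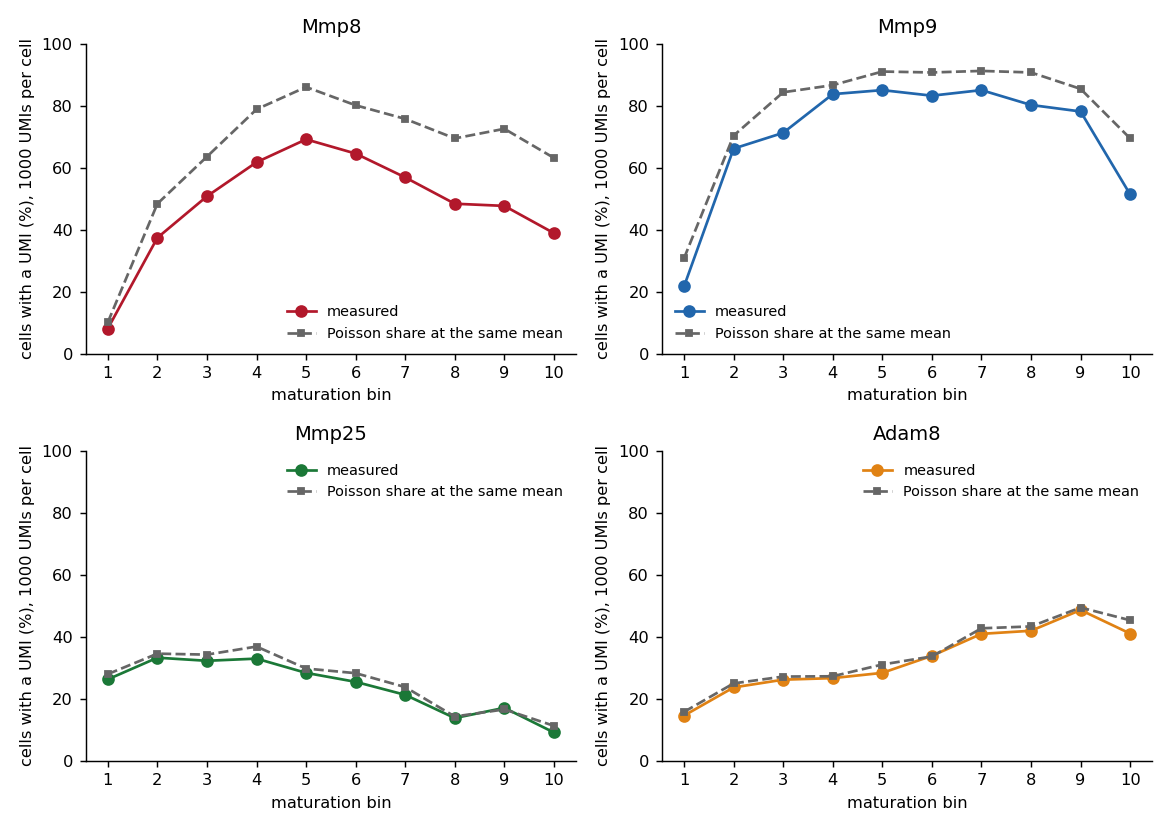
Percent of cells with a UMI after thinning to 1000 UMIs per cell, measured (solid) and as the Poisson law gives from the mean (dashed), for the 4 genes in the 10 maturation bins. Mmp8 stays below the dashed line, at 47.7% against 72.6% in bin 9, and Mmp25 and Adam8 lie close to it.

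To compare OVX with sham, UMIs were summed over the cells of each condition. Over all neutrophil-like cells, Mmp8 was at 1176 CPM in OVX (1149 to 1203) and at 876 CPM in sham (849 to 904), a ratio of 1.34 (1.29 to 1.40). Mmp9 reached 1930 CPM in OVX cells against 1423 CPM in sham cells, a ratio of 1.36 (1.32 to 1.40). In these sums Mmp8 and Mmp9 were thus both higher in the OVX pool. Mmp25 was at 264 CPM in OVX (251 to 277) and 421 CPM in sham (402 to 440), a ratio of 0.628 (0.587 to 0.671). Adam8 reached 323 CPM in OVX cells against 388 CPM in sham cells, a ratio of 0.832 (0.780 to 0.888). Mmp25 and Adam8 were both lower in the OVX pool.
At a 1.5-fold difference, 0 of the 4 genes were higher in OVX, beside 6.03% of the 2387 genes that reached 50 CPM in OVX or sham cells. Mmp25 was lower by that fold, which is 1 of 4, beside 11.8% of the 2387. The median log2 ratio was 0.08 for the 4 genes and -0.09 for all genes tested. Fewer cells of a stage and less RNA per cell cannot be told apart in these sums, and the pools differed in both: OVX cells made up 461 of the 573 assigned cells of the Stfa2 cluster and 99 of the 410 of the Retnlg cluster, and the median depth was 4565 UMIs in OVX and 3450.5 in sham.
Within maturation bins Mmp25 and Adam8 kept their direction in CPM. Mmp25 was lower in OVX in 10 of 10 bins, with the interval of the ratio below 1 in 8, from 0.520 in bin 5 (296 CPM in OVX, 569 in sham) to 0.826 in bin 10 (87.2 and 106). Adam8 was lower in OVX in 10 of 10 bins, with the interval below 1 in 7, from 0.562 in bin 1 (97.2 CPM in OVX, 173 in sham) to 0.923 in bin 3 (281 and 305). In thinned cells of all bins, Mmp25 had a UMI in 18.3% of the OVX cells (95% exact interval 15.9% to 20.9%) and in 29.7% of the sham cells (26.6% to 33.0%). Adam8 had one in 29.0% of the OVX cells (26.2% to 32.0%) and in 37.7% of the sham cells (34.3% to 41.2%). By bin, the Mmp25 share was higher in OVX in bin 7 (22.5% against 20.8% in sham) and lower in each other bin. The Adam8 share was higher in OVX in bin 9 (48.6% against 46.8%) and lower in each other bin.
The direction for Mmp8 changed along the order. In bin 3 it was at 698 CPM in OVX (640 to 759) and 1493 CPM in sham (1389 to 1603), a ratio of 0.467 (0.418 to 0.522). In bins 4 and 5 the ratios were 0.852 and 0.847, and from bin 6 on OVX was higher, by 1.27 in bin 6, 1.64 in bin 7, 1.90 in bin 8, 1.96 in bin 9 and 2.61 (2.11 to 3.26) in bin 10. In sham Mmp8 was highest in bin 5, at 1865 CPM, and was at 537 CPM in bin 10. In OVX it was highest in bin 7, at 1972 CPM, and was still at 1403 CPM in bin 10. Its half-point was 61.4 in OVX cells alone and 47.5 in sham cells alone, the widest such gap of the 4, and 64.6 and 55.8 in the order by marker score. The share of thinned cells with an Mmp8 UMI moved the same way, from 44.4% in OVX and 58.0% in sham in bin 3 to 60.6% and 32.5% in bin 9.
In CPM, Mmp9 was close to even in the early and middle order and higher in OVX at its end. Its ratio lay between 0.911 and 1.12 in bins 1 to 7, and was 1.24 in bin 8, 1.51 in bin 9 and 2.94 (2.44 to 3.55) in bin 10, where OVX cells held 2058 CPM and sham cells 701 CPM. In thinned cells of bin 10, 65.4% of OVX cells and 40.0% of sham cells had an Mmp9 UMI. These shares were also apart in bin 3, at 79.8% and 61.7%, and were 83.9% and 87.9% in bin 5. Without the cells of the cycling cluster in bin 10 (10 OVX and 9 sham cells) the Mmp9 ratio there was 3.01, and that of Mmp8 2.74. The half-points of Mmp9 were 57.2 in OVX cells and 53.2 in sham cells.

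**Figure D5:**
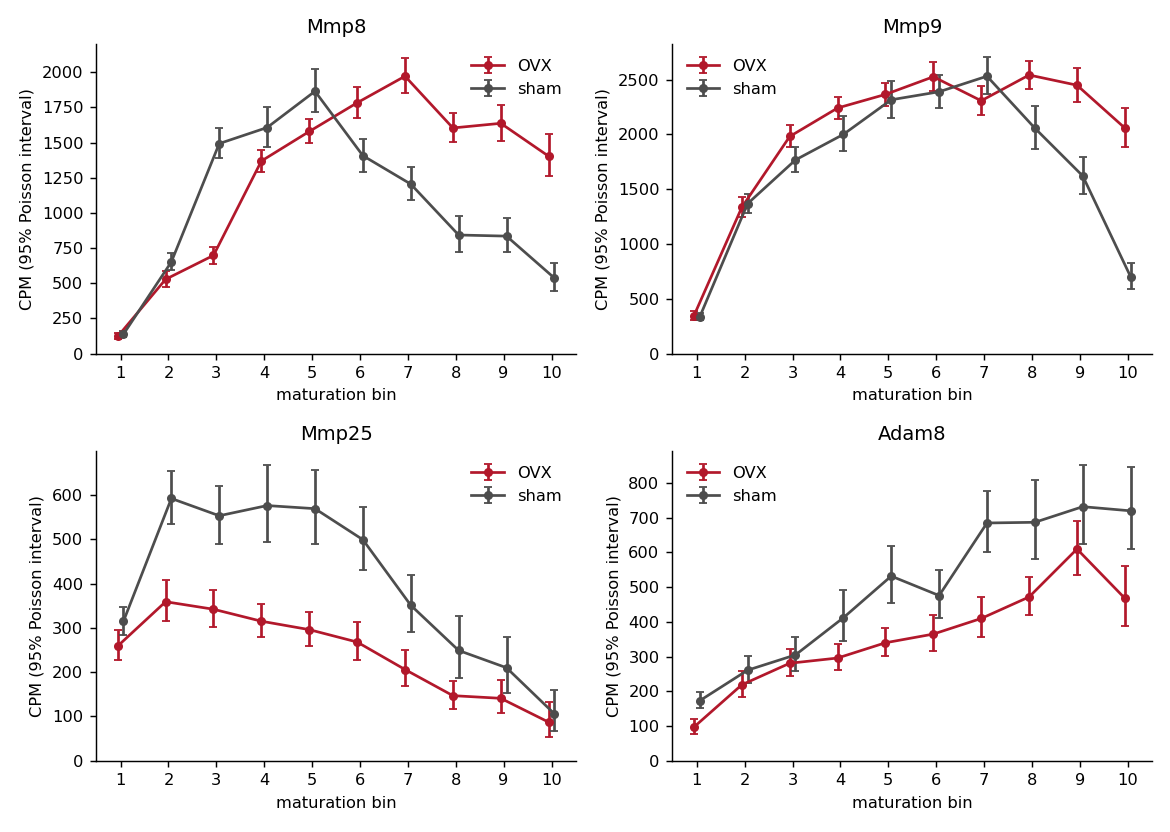
CPM of each gene in OVX (red) and sham (grey) cells in the 10 maturation bins (bars show the 95% Poisson interval, 62 to 125 cells per point). The Mmp8 curves cross between bins 5 and 6, the Mmp9 curves part from bin 8 on, and Mmp25 and Adam8 are lower in OVX in 10 of 10 bins.

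Secondary granule genes differed between the conditions over the same bins. In bin 3 Ltf stood at 238 CPM in OVX cells against 872 CPM in sham cells, a ratio of 0.273 (0.229 to 0.325), and Camp at 248 and 819 CPM, a ratio of 0.303. In bin 1 both were within 1.08-fold of even. Over all neutrophil-like cells 5 of the 8 secondary genes were lower in OVX by at least 1.5-fold, with Ltf and Camp both at 0.524, and Hp was higher at 2.24. Of all 2387 genes tested, 11.8% were lower and 6.03% higher by that fold. Mmp8, Ltf and Camp were thus all lower in OVX in bin 3, while in bins 7 to 10 Ltf and Camp were at or below 72.0 CPM in both conditions. The order was computed from cells of both conditions, so a bin holds cells of like profile and not of a known age.
By cluster, Mmp8 was lower in OVX in the cycling cluster (192 CPM in OVX and 453 in sham) and higher in the Stfa2 cluster (1296 and 972) and the Ccl4 cluster (1641 and 794, a ratio of 2.07). Mmp25 was lower in OVX in each of the 4 neutrophil-like clusters, with ratios from 0.510 (Stfa2) to 0.711 (cycling). Adam8 was lower in 3 of the 4, with 318 CPM in OVX and 288 CPM in sham (ratio 1.10, 0.924 to 1.33) in the Stfa2 cluster.
In the Arg1 and Msr1 cluster Mmp9 was at 641 CPM in 16 OVX cells (526 to 773) and 125 CPM in 41 sham cells (92 to 165), a ratio of 5.13 (3.62 to 7.37). Few cells made up these sums, since 3 OVX cells held 78.0% of the 109 UMIs and 3 sham cells 66.7% of the 48. S100a8 stood at 24950 CPM in these OVX cells and 5983 CPM in the sham cells, and the part of neutrophil RNA in the Mmp9 difference was not tested. Of osteoclast genes, Acp5 (the phosphatase TRAP) had 23 UMIs in the OVX cells and 5 in the sham cells, and Ctsk 3 in each. The 2 OVX cells with 9 and 12 Acp5 UMIs held 29 and 12 Mmp9 UMIs, and 976 and 578 S100a8 UMIs. Neither held a UMI of the osteoclast genes Ctsk, Atp6v0d2 or Dcstamp, and the second held 3 of Ocstamp. Without those 2 cells the Mmp9 ratio was 4.32 (2.94 to 6.39).
Inhibitors of metalloproteinases were low in the neutrophil-like cells. Timp2 was at 103 CPM, 112 in OVX and 89.4 in sham, and Timp1 at 17.9 CPM. Timp4 and A2m had no UMI, with a 95% Poisson interval that reaches up to 0.317 CPM. Timp1 and Timp3 were at 2036 and 724 CPM in the Ptprc-low cluster. Of the 6 inhibitors, 1 was at 50 CPM or more in a condition (Timp2), and it did not reach a 1.5-fold difference.
Of 14 other metalloproteinases, 5 reached 50 CPM in OVX or sham neutrophil-like cells and 0 differed by 1.5-fold. Beside them, 6.03% of all 2387 genes tested were higher and 11.8% lower in OVX by that fold, so 0 of 5 does not set them apart. Adam17, a sheddase of surface proteins, was at 179 CPM and ran late, with a half-point of 67.2, and Adam19 was at 165 CPM with a half-point of 55.9, beside Mmp9. Adam15 ran early, at 27.2. Stromelysin (Mmp3) was at 270 CPM in neutrophil-like cells and at 29653 CPM in the Ptprc-low cluster (0.910% of it). Over the bins it was at 228 CPM in bin 1, from 230 to 311 CPM in bins 2 to 9, and at 434 CPM in bin 10. The macrophage elastase Mmp12 and the membrane-type enzyme Mmp14 were at 787 and 229 CPM in the Arg1 and Msr1 cluster and at 12.0 and 3.61 CPM in neutrophil-like cells.
Partners and substrates of these enzymes were looked at along the same order. Cd44, which holds Mmp9 at the cell surface, had a half-point of 65.2, and the P-selectin ligand Selplg had 59.6. The ratio of OVX to sham was 1.62 for Selplg and 0.616 for Plaur, the urokinase receptor, while it was 1.01 for Cd44 and 1.21 for Il1b. Of the 7 genes of this list that reached 50 CPM, 2 were higher and 1 was lower in OVX by 1.5-fold. Among all 2387 genes the shares were 6.03% and 11.8%.
Promoter sequences of GRCm38.p6 from RefSeq, 250 bases before to 50 after the start, were at hand for Mmp8, Mmp25 and Adam8. Both strands were searched for TTGCNNAA (a C/EBP motif), TGANTCA (AP-1) and AGGAAGT (PU.1), which 10.8%, 7.81% and 9.35% of 32851 promoters held. The same letters TTGCTCAA were found 19 bases before the RefSeq start of Mmp8 and 219 bases before that of Adam8. For Mmp8 this start lies upstream of the first base of the gene coordinates given above. Mmp8 also held AGGAAGT on the reverse strand. No match was found for Mmp25, as for most promoters, and a link between these letters and the levels of the genes was not tested. The promoters with a match are shown with the matched letters in capitals, for Mmp8 (chr9:7558179-7558478, plus strand) and for Adam8 (chr7:139992513-139992812, minus strand), as descriptions and not as sites of binding.
Mmp8 promoter: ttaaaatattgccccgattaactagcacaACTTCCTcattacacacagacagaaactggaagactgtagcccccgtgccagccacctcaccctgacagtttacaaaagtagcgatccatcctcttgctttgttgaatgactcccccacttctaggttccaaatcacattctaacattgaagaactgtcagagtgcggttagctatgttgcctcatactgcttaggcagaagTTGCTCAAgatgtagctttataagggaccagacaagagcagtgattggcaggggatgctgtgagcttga
Adam8 promoter: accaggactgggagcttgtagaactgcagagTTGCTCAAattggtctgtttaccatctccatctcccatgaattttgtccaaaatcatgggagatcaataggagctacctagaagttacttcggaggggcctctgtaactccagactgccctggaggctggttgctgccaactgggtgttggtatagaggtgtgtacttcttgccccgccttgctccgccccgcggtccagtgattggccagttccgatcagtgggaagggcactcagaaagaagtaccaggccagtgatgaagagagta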

How the data were processed

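Omacs of 1 pool of OVX and 1 pool of sham mice were marked with hashtags and run together with the 10x 3′ kit. The authors used Cell Ranger with mm10 (GRCm38), given as 6.0.0 in the file header and 6.0.1 in the submitters' processing notes, and deposited unnormalized UMI counts of genes and hashtags in barcodes already called as cells. The second library, of hashtag reads, was left unused because the gene matrix already holds the hashtag counts.

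Barcodes were assigned by HTODemux (Seurat 5.3.0, R 4.3.3, quantile 0.99). From log-transformed counts per 10000, 2000 variable genes, 30 principal components and 15 neighbors (scanpy 1.11.5) gave 6 Louvain clusters (igraph 0.11.9, resolution 0.3). The partition changes with seed and settings. Clusters at 100 CPM Ptprc or more, other than the Arg1 and Msr1 cluster, were kept as neutrophil-like. No doublet caller was applied. Barcodes with both hashtags were left out of comparisons of conditions, and doublets within a condition remain.

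CPM is summed UMIs scaled to 1000000. Intervals are exact at 95% (Poisson, Clopper-Pearson and, for a ratio, conditional binomial), while the half-point interval comes from its UMI number, and all cover counting error only. With no replicates no p-value was made. Thinning to 1000 UMIs left out 48 OVX and 85 sham neutrophil-like cells. Half-points were computed from 100 UMIs on. The genes named are the 4 members, gene lists of granules, late neutrophils, inhibitors, other metalloproteinases, partners and cell type markers, and the 5 genes most like each member, chosen from those that reach 50 CPM in a bin. The members and lists were chosen with earlier results of these data known. Calculations were tested on simulated data. One gene of the list of partners is not reported here.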

Additional observations from a re-analysis of the deposited data

Results flagged for a closer look

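For Mmp8 and Mmp9 the ratio of OVX to sham lay on opposite sides of 1 in different clusters, with counting intervals that leave out 1 on both sides. For Mmp8 it was 0.424 in the cycling cluster and 0.804 in the Arg1 and Msr1 cluster, against 1.33 in the Stfa2 cluster, 1.10 in the Retnlg cluster and 2.07 in the Ccl4 cluster. Without the 2 cells high in Acp5, the ratio in the Arg1 and Msr1 cluster was 1.00 (0.857 to 1.17). For Mmp9 it was 0.778 in the cycling cluster, against 1.27 in the Stfa2 cluster, 1.32 in the Ccl4 cluster and 5.13 in the Arg1 and Msr1 cluster, which rests on 16 OVX and 41 sham cells. The differences between clusters were not tested, since each condition was 1 pool.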

How the results depend on the processing

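The log2 ratio of OVX to sham (0.42 for Mmp8, 0.44 for Mmp9, -0.67 for Mmp25, -0.26 for Adam8) kept its sign in each of the 6 alternatives tried. With equal weight per maturation bin it was 0.26 for Mmp8, 0.24 for Mmp9 and -0.48 for Adam8, so the difference was smaller for Mmp8 and Mmp9 and larger for Adam8 than in the pooled sums. With median-of-ratios scaling it was 0.51 for Mmp8 and 0.52 for Mmp9. With the other hashtag rule, at least 80% of at least 10 hashtag UMIs, it was 0.51 for Mmp9, and with equal weight per cell 0.35 for Mmp9. That hashtag rule gave 913 OVX and 1010 sham neutrophil-like cells, against 1005 and 886 by HTODemux, so the larger pool changed with the rule. Removal of barcodes under 500 genes or above 10% mitochondrial UMIs and subtraction of free RNA left each ratio within its counting interval.

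The half-points (56.6, 55.6, 38.0 and 64.5 for Mmp8, Mmp9, Mmp25 and Adam8) were 61.9, 60.9, 44.9 and 60.5 in the order by marker score. They were 53.7, 52.5, 34.7 and 60.9 with median-of-ratios scaling of the bins. With the granule genes and the 4 members kept in the graph they were 55.7 for Mmp8, 55.0 for Mmp9 and 36.5 for Mmp25. With the barcode filter they were 57.4 for Mmp8 and 56.8 for Mmp9. In OVX cells alone they were 61.4 for Mmp8 and 57.2 for Mmp9, and in sham cells alone 47.5 for Mmp8, 53.2 for Mmp9 and 39.5 for Mmp25. The causes were not tested. With another root, 30 neighbors or 20 bins each stayed within its counting interval. Scaling of the bins, the graph with granule genes and members, bin 10 without cycling cells, the half-points by condition in the score order, gene pairs within bins and the Poisson shares by condition were added after seeing the data.

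No paired analysis was possible because each condition was 1 pool. Leaving out a replicate could not be done for the same reason. At the depth of bin 10, with 22 Mmp25 UMIs in each condition, the ratio of 0.826 had an interval of 0.436 to 1.56, and a difference in Mmp25 was not detectable there.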
